A study of Mus musculus with 6 samples.

Results

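The ubiquitin system genes described here are 21 of the 1420 genes in the deposited table of small intestinal organoids. They were chosen by name alone, as every gene whose symbol starts with Usp or Cul and a digit, or with Ube, Ubr, Ubx, Fbx, Psm, Rnf, Klhl, Trim, March, Herc, Otu or Dcaf. By name they fall into 13 ligase genes (4 parts of cullin-RING ligases and 9 of the RING and TRIM families), 3 deubiquitinase genes, 2 proteasome genes, 2 genes for E2 conjugating enzymes and 1 gene of the UBX family. No Ubr, Herc or Dcaf gene was in the table. Poly(A)+ RNA was sequenced from 3 wild type (WT) and 3 Smarcad1 knockout (KO) cultures on the C57BL/6 strain, to ask what loss of this chromatin remodelling ATPase changes in epithelium grown without microbiota or immune cells. The series design and the genotype label name a Vil-Cre deletion, active in intestinal epithelium, whereas the growth protocol and the study's methods name ZP3-cre, active in the oocyte, with littermates as controls. By the methods the floxed allele came from a single targeted mouse line. The methods describe the study's mice as males, their age was not given in the sources used here, and the series design calls the triplicates biological. All 6 cultures received EGF, Noggin and R-spondin 1 conditioned medium, and about 600 organoids were collected after 5 days.

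Ubiquitin is a small protein that cells attach to other proteins through a chain of enzymes. An E1 activates it, an E2 carries it and an E3 ligase picks the target, while deubiquitinases take it off again. Chains of ubiquitin often send a protein to the proteasome, a barrel-shaped protease closed by regulatory caps, and the p97 ATPase with its UBX-domain partners helps to unfold such targets. In the intestinal crypt the system is best known for the turnover of Wnt receptors and of beta-catenin. NEDD8, ISG15 and SUMO are related modifiers with enzymes of their own, and the name rule takes in some of these: 14 of the 21 genes encode proteins that attach or remove ubiquitin itself, Trim29 counted among them although it lacks the RING domain.

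The values are RPM, reads per 1e+06 reads of the library, and the log2 changes below are KO against WT on log2(RPM + 0.1), tested with limma. The table was made by the authors from genes that passed their own test on these same 6 libraries. Therefore 99.9% of its genes passed the limma threshold (adjusted p under 0.05), 52.5% higher and 47.4% lower in KO, and the passing of a member is not a separate finding. Library depth ranged from 1.24e+07 to 1.57e+07 reads, so that 3 reads correspond to 0.192 to 0.242 RPM. Smarcad1 fell from 105, 94.7 and 96.3 RPM in WT to 21.7, 21.3 and 24.03 RPM in KO (log2 change -2.14, adjusted p = 5.59e-05). No KO value of Smarcad1 came near a WT value, in the direction of the labels. Of the markers of other states of this epithelium, 14 of 22 Paneth markers were in the table and all 14 rose, with a summed level of 9626 to 11180 RPM in WT and 20050 to 29320 RPM in KO. Of 26 enterocyte markers 13 were in the table, 10 lower and 3 higher, with sums of 22730 to 25840 RPM in WT and 16650 to 18090 RPM in KO. Goblet markers (9 of 19 in the table, 8 higher) summed to 2169 to 2424 RPM in WT and 3307 to 6001 RPM in KO, enteroendocrine markers (4 of 23, all 4 higher) to 629.7 to 670 RPM and 870.6 to 1472 RPM, and stem cell markers (4 of 20, all 4 higher, Rnf43 being a member of both lists) to 394.6 to 452.3 RPM and 558.7 to 644.8 RPM. Tuft cell, proliferation and non-epithelial lists had 1 of 17, 1 of 25 and 2 of 20 genes in the table, and all other markers were not analysed here. With a trend of the values with transcript length removed in each library, 9 of the 14 Paneth, 4 of the 9 goblet and 3 of the 4 enteroendocrine markers no longer passed, and Clps, Defa26, Guca2b and Klk1 turned to lower. The Paneth median then moved from 1.02 to 0.17 and the goblet median from 0.93 to 0.16. Of the enterocyte markers 11 of 13 still passed, and all 4 stem cell markers did. The trend was fitted on the genes of the table, all chosen as changed, with these markers among them. Its removal can therefore take out the rise of markers with short transcripts itself. A length effect and a change of these markers cannot be told apart by it. In bulk organoids fewer cells of a type and less RNA per cell cannot be told apart, and the part of these shifts in the changes below was not tested.

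All 21 members passed the limma threshold, 11 higher and 10 lower in KO, beside the shares of 52.5% and 47.4% over the table. By class, the ligase genes were 9 higher and 4 lower (median log2 change 0.50, or 0.046 over those with a mean above the 25th percentile of the table), the deubiquitinase genes were all 3 lower (median -0.49) and the proteasome genes were both lower (median -0.40). The median over all 21 members was 0.42, and over the whole table it was 0.38, or -0.35 over its genes above that percentile. A log2 change of at least 1 was reached by 6 members upward, where 19.0% of the table did so, and by no member downward, where 8.1% of the table did so. KO and WT values did not overlap in 20 of the 21 members, as in 98.5% of the table. These counts are a description of a short list and were not tested against the rest of the table.

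**Figure D1:**
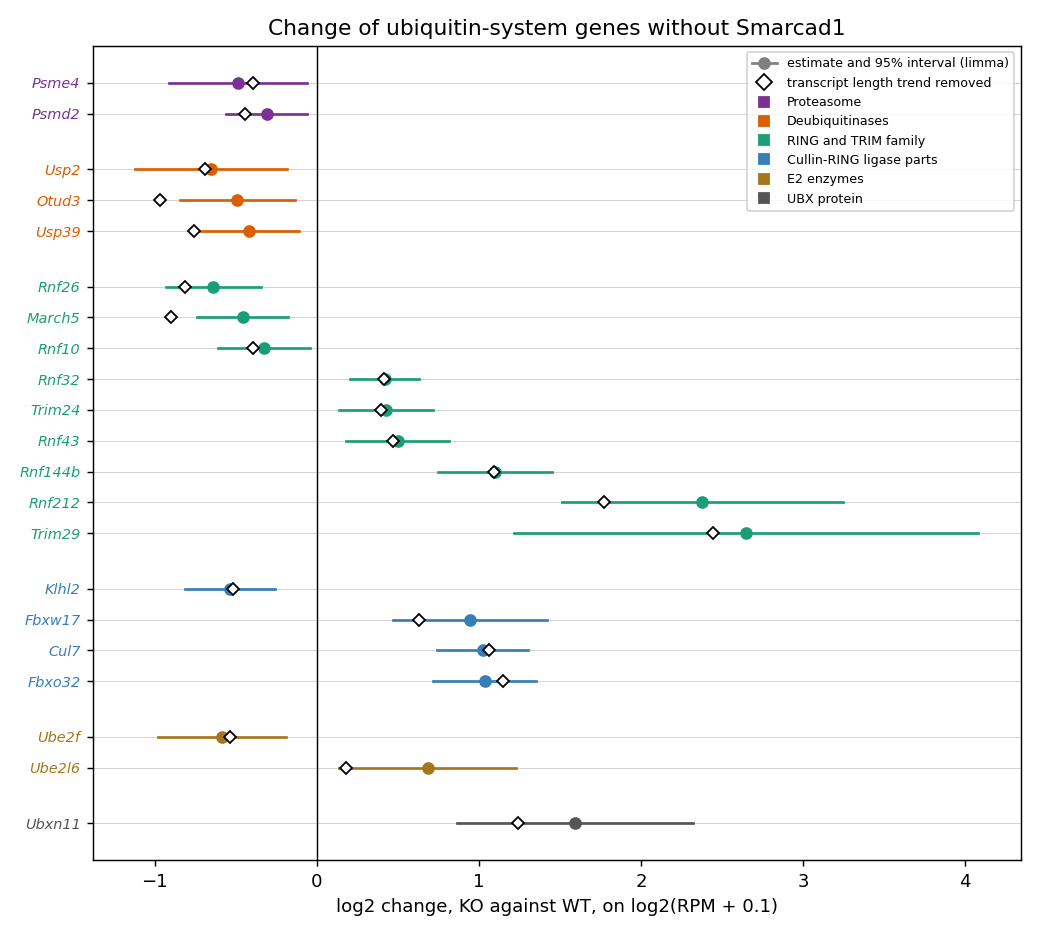
Log2 change (KO against WT, horizontal axis) of each of the 21 genes, coloured by functional class. Points are limma estimates with 95% intervals from 3 WT and 3 KO libraries, and white diamonds are the values after a trend with transcript length was removed in each library. Both proteasome genes and all 3 deubiquitinase genes lie left of 0, and 9 of the 13 ligase genes lie right of 0.

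The members that rose had a lower median level in WT organoids than those that fell, with overlapping ranges. The median WT level was 11.0 RPM for the 11 higher genes and 85.9 RPM for the 10 lower genes. Rnf43 and Trim24 rose from WT means of 123 and 128 RPM, while Otud3 and Usp2 fell from 41.6 and 48.1 RPM. The medians differed in the same direction over the table, with 25.7 RPM for higher and 139 RPM for lower genes. All genes of the table passed a test on these libraries, so one with almost no WT reads could hardly enter by a fall. The WT level is also part of the log2 change. The choice of genes thus sets part of this pattern. Per kb of merged exons, the WT levels ran from 108 RPM per kb for Psmd2, 67.3 for Rnf10 and 58.6 for March5 down to 0.438 for Rnf212, 0.218 for Ubxn11 and 0.0999 for Trim29. The order puts the 3 genes with the highest level per length among those that fell and the 3 lowest among those that rose.

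**Figure D2:**
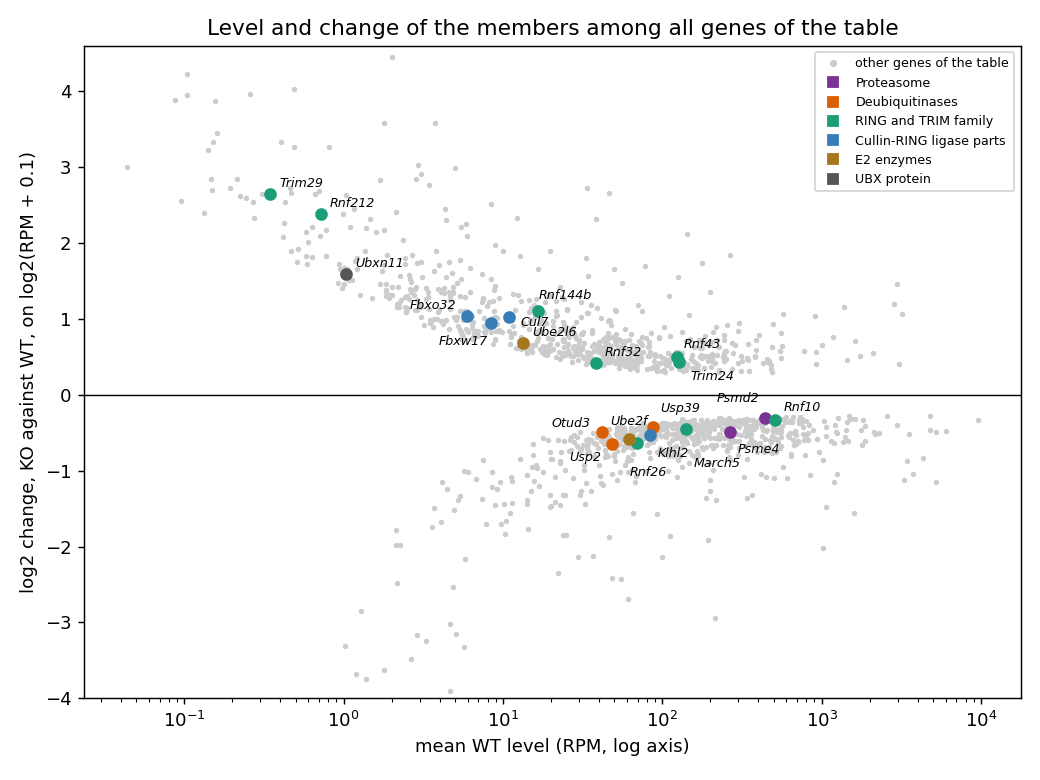
Mean WT level (RPM, log axis) against the log2 change in KO for the genes of the table, with the 21 members coloured by class and named. The 9 genes outside the vertical range and the 5 genes at 0 RPM in all WT libraries are not drawn. Trim29, Rnf212 and Ubxn11 sit at the low end of the level axis with the largest rises, and Psmd2 and Rnf10 at the high end with small falls.

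Promoter sequences are shown for the genes that fell together as the proteasome pair, Psmd2 and Psme4, and for the members with the most matches to 6 motifs in the 250 bases before a RefSeq start, which were Ubxn11 among the genes that rose and Otud3 and Ube2f among those that fell. Each is from RefSeq (GRCm38.p6), written 5′ to 3′ on the strand of the gene and ending 5 bases after the RefSeq start. Capitals mark motif matches on either strand. For Psme4 only 30 bases are given, since the deposited gene begins 49 bases before the RefSeq start.
Otud3, chr4:138913964-138914218, minus strand: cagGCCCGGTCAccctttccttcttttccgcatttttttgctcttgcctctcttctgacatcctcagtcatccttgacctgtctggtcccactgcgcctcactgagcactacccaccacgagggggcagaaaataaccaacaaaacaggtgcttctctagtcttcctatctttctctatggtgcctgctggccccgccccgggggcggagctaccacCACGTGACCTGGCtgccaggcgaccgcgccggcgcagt
Ube2f, chr1:91250054-91250308, plus strand: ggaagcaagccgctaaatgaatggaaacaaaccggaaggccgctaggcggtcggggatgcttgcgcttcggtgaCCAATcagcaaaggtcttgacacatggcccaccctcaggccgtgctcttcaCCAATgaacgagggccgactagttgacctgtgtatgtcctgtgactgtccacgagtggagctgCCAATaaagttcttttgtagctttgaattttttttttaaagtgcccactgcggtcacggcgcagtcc
Ubxn11, chr4:134102333-134102587, plus strand: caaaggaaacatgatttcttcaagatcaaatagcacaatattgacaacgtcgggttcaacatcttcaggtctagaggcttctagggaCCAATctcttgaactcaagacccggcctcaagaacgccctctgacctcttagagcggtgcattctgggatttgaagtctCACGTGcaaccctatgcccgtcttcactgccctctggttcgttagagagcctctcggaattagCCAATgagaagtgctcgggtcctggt
Psmd2, chr16:20651402-20651656, plus strand: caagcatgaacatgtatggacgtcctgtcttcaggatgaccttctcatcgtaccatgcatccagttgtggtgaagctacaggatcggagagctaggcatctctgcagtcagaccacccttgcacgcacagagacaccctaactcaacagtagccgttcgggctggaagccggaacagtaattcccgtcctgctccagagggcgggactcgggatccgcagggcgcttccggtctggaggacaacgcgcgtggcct
Psme4, chr11:30771750-30771779, plus strand: cctcccggcgctgcggctGCAGCGTCAcca

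The motifs were searched on both strands in the window of 250 bases before to 50 bases after the start, in the RefSeq promoters used here, which cover 18 of the 21 members. Those of Fbxo32, Trim29 and Usp39 were not analysed here. More than 1 start is given for 5 of the 18 (March5, Rnf144b, Rnf43, Trim24 and Ube2f), so there were 23 member windows, and a gene is counted when any of its windows holds the motif. The shares beside the members are counted in that way over 27025 genes. The core of the antioxidant response element (TGACNNNGC, bound by Nrf1 and Nrf2, of which Nrf1 is the known activator of proteasome genes) was in the windows of 4 members, Otud3, Psme4, Ube2f and Usp2, and in 14.0% of genes. All 4 of these genes were lower in KO, where 47.4% of the table was lower. Whether genes with this motif fell more often than others was not tested. In Otud3 it occurred at -247 to -239 and again at -29 to -21, where its first letters overlap the last of an E-box (CACGTG) at -33 to -28. In Psme4 it spanned the RefSeq start, from -7 to 2. The match of Ube2f lies at 28 to 36 of its other RefSeq start, 262 bases further on, and is not in the stretch shown, and the only start of Usp2 in the table of promoters lies 17.9 kb inside the deposited gene. The Psmd2 window held none of the 6 motifs. CCAAT, the NF-Y box, was in 5 members (Rnf10, Rnf212, Trim24, Ube2f and Ubxn11) and in 41.1% of genes, with 3 copies in Ube2f. Of these members Rnf212, Trim24 and Ubxn11 were higher in KO, and Rnf10 and Ube2f were lower. The E-box was in 3 members (Otud3, which was lower in KO, and Rnf212 and Ubxn11, which were higher) and in 8.09% of genes. GTAAACA, a FOXO motif, was in Cul7, which was higher in KO, in Rnf26, which was lower, and in 4.05% of genes. ATCAAAG, a TCF motif, and the core of the interferon response element (GAAA, NN and GAAA in a row) were in no member window and in 4.29% and 3.99% of genes. A match describes the letters in the window and is not evidence of binding.

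Both proteasome genes were lower in KO. Psmd2 encodes Rpn1, a base subunit of the 19S cap on which ubiquitin receptors and a deubiquitinase dock. Its position is chromosome 16, 20651652 to 20663414, plus strand (all gene positions here are GRCm38 and all values are sums over exons). Psmd2 was measured at 438, 416 and 460 RPM in WT and at 331, 346 and 384 RPM in KO. Each KO library was below each WT library, and KO replicate 3 came closest to WT. The level was 80.7% of WT, with a log2 change of -0.31 (SE 0.11, adjusted p = 0.0244). Psme4 (chromosome 11, 30771726 to 30880361, plus strand) encodes PA200, a large activator that caps the 20S core without ubiquitin and is linked to degradation of acetylated histones. Its WT libraries were close together at 268, 261 and 271 RPM, and its KO libraries were spread at 149, 193 and 240.3 RPM. The KO values thus differed more among themselves (coefficient of variation 23.5%, against 1.94% in WT) than the nearest KO value differed from WT. Psme4 changed by -0.49 on the log2 scale (SE 0.18, adjusted p = 0.0321). Psme4 missed the threshold when any single library other than KO replicate 3 was left out, and Psmd2 missed it in 4 of the 6 such fits, with log2 changes between -0.65 and -0.31 for Psme4 and between -0.37 and -0.26 for Psmd2. None of the other Psm genes was in the table, so 2 genes do not describe the whole particle.

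All 3 deubiquitinase genes were lower in KO. Otud3 (chromosome 4, 138895379 to 138913945, minus strand) encodes a deubiquitinase of the OTU family. WT values were 40.03, 43.0 and 41.6 RPM and KO values 23.99, 33.5 and 32.1 RPM. The groups did not overlap, and KO replicate 1 was the lowest. The log2 change was -0.49 (SE 0.15, adjusted p = 0.0172). Usp2 (chromosome 9, 44067021 to 44095627, plus strand) encodes a deubiquitinase under clock control whose known substrates include cyclin D1 and Mdm2. Usp2 was measured at 49.9, 42.7 and 51.8 RPM in WT and at 38.4, 31.5 and 23.4 RPM in KO. Here KO replicate 3 was the lowest, whereas in the other 9 members that fell KO replicate 1 was farthest from WT. The log2 change of Usp2 was -0.65 (SE 0.19, adjusted p = 0.0166), the largest fall among the 21 members in the fit of all 6 libraries. After removal of the length trend Usp2 was at -0.69, and Otud3 had the largest fall (-0.97). By mean level Usp2 stood at 64.6% of WT and Rnf26 at 64.2%.
Usp39 (chromosome 6, 72318678 to 72345184, minus strand) belongs to the USP family by sequence but lacks protease activity and works in the spliceosome. It was measured at 88.8, 84.8 and 90.4 RPM in WT and at 60.4, 60.7 and 77.4 RPM in KO, a log2 change of -0.42 (SE 0.13, adjusted p = 0.0178). KO replicates 1 and 2 were nearly equal, and KO replicate 3 lay nearer to WT. Without either WT replicate 1, WT replicate 3 or KO replicate 2, Usp39 missed the threshold, and so did Otud3 without WT replicate 2 and Usp2 without WT replicate 3. Thus 2 of the 3 genes encode active deubiquitinases.

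**Figure D3:**
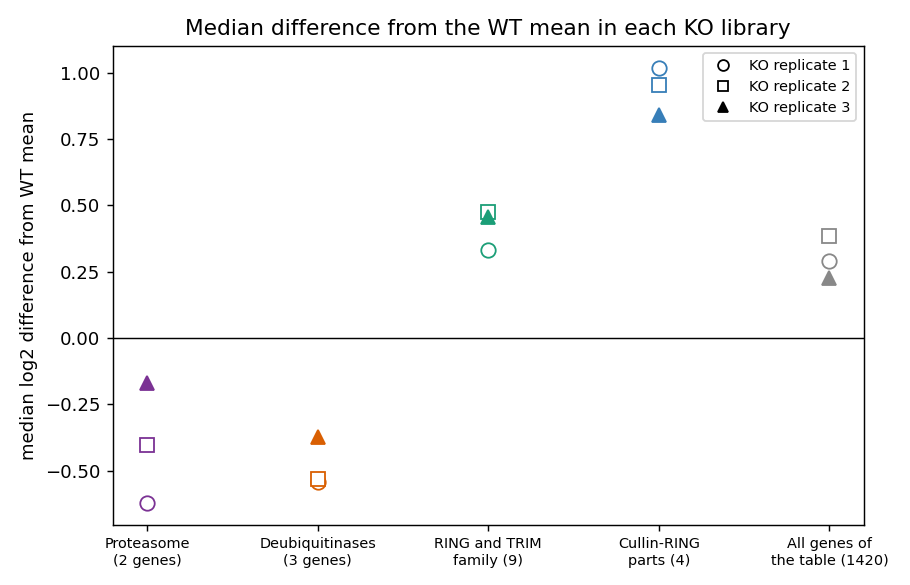
Median log2 difference from the WT mean in each KO library (vertical axis) for 4 classes of genes and for all genes of the table. Symbols are KO replicates 1 to 3. The proteasome median ran from -0.62 in KO replicate 1 to -0.17 in KO replicate 3 and the deubiquitinase median from -0.54 to -0.37. Both were below 0 in every KO library. The medians of both ligase classes were above 0 in every KO library. So was the median of the table, at 0.29, 0.38 and 0.225 in KO replicates 1 to 3.

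The KO libraries did not deviate equally. Among the 10 members that fell, KO replicate 1 was farthest from the WT mean in 9 and KO replicate 3 nearest in 7. Among the 11 that rose, KO replicate 1 was farthest in 3 and nearest in 5. Over the whole table KO replicate 1 was farthest in 61.4% of genes and KO replicate 3 nearest in 65.3%. The difference between KO replicates 1 and 3 followed transcript length over the table (Spearman's rho across 1397 genes -0.49, a description since genes share the libraries) and hardly did so among the 21 members (rho -0.02).

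Among the 4 parts of cullin-RING ligases, the modular complexes in which a cullin scaffold holds a RING protein and a substrate adaptor, 3 were higher and 1 was lower in KO (median log2 change 0.98). Cul7 (chromosome 17, 46650337 to 46664364, plus strand) encodes a scaffold that works with the F-box protein Fbxw8. Its WT libraries held 10.6, 12.1 and 10.2 RPM and its KO libraries 23.5, 23.5 and 20.3 RPM. Every KO library was above every WT library by at least 8.18 RPM. The log2 change was 1.02 (SE 0.12, adjusted p = 0.00113), which left Cul7 at 204% of WT. Fbxo32 (chromosome 15, 58175879 to 58214892, minus strand) encodes atrogin-1, an F-box adaptor known from muscle wasting and from control by FOXO factors. Fbxo32 was measured at 5.44, 6.07 and 6.27 RPM in WT and at 12.7, 10.5 and 13.7 RPM in KO. The lowest KO value was well above the highest WT value, and the log2 change was 1.03 (SE 0.13, adjusted p = 0.00157).
Fbxw17 (chromosome 13, 50417864 to 50433780, plus strand), an F-box gene with WD repeats, was measured at 7.07, 11.1 and 7.18 RPM in WT and at 16.02, 17.7 and 14.4 RPM in KO. WT replicate 2 stood above the other WT libraries and still below KO. The log2 change was 0.94 (SE 0.20, adjusted p = 0.00598), and 0.63 after removal of the length trend. Klhl2 (chromosome 8, 64739675 to 64850017, minus strand) encodes a Kelch adaptor of cullin 3 whose known targets are WNK kinases. It was the only part of this class that fell, from 80.4, 84.7 and 86.3 RPM in WT to 52.5, 56.3 and 65.4 RPM in KO (log2 change -0.53, SE 0.12, adjusted p = 0.00659). All 4 genes passed the threshold with every single library left out in turn.

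**Figure D4:**
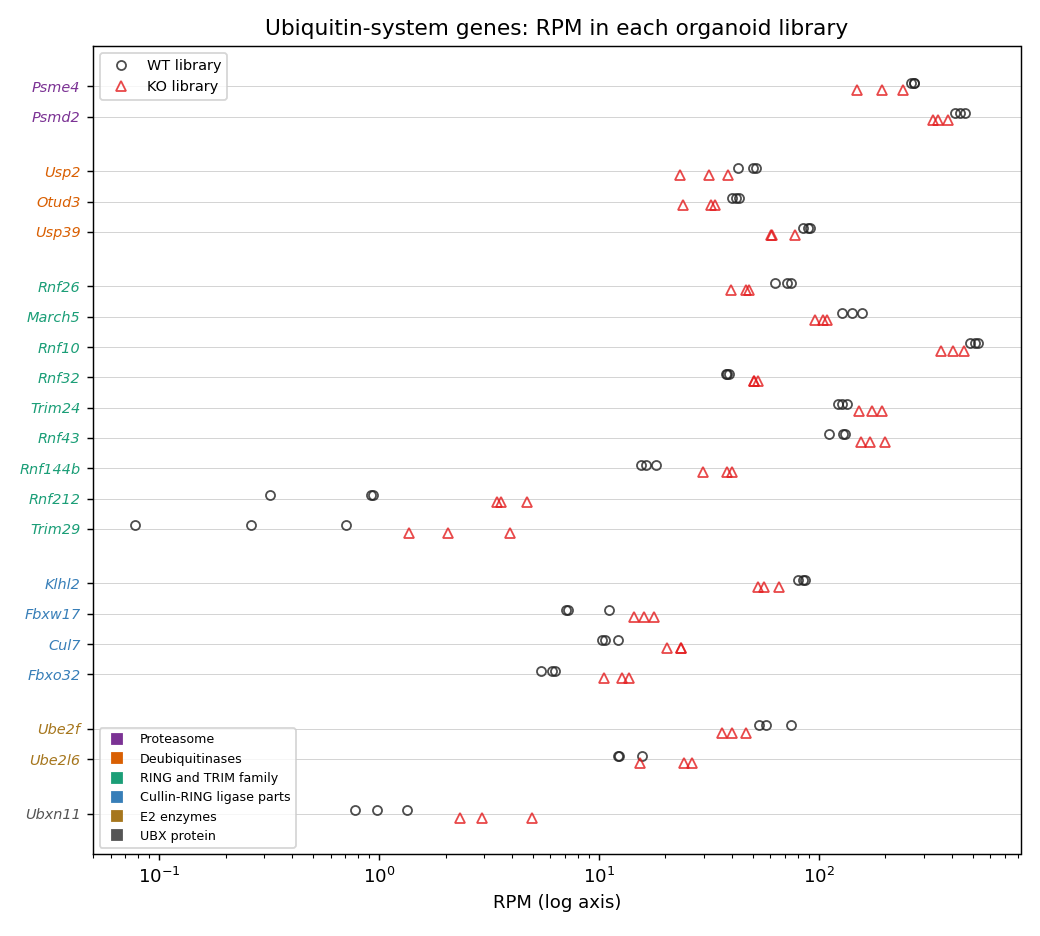
RPM of each of the 21 genes in the 6 libraries (log axis), grouped and coloured by functional class. Circles are WT libraries and triangles are KO libraries, 3 each. The symbols of the 2 groups are separate in every gene but Ube2l6, where WT replicate 1 (15.7 RPM) lies above KO replicate 3 (15.3 RPM).

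Of the 9 genes of the RING and TRIM families 6 were higher and 3 were lower (median log2 change 0.43). Rnf43 (chromosome 11, 87662722 to 87735539, plus strand) encodes the membrane ligase that removes Frizzled, the Wnt receptor, from the cell surface. It is a Wnt target and stem cell marker, and R-spondin, present in this medium, is known to block it. Rnf43 was measured at 131, 128 and 111 RPM in WT and at 155, 171 and 199 RPM in KO. The groups did not overlap, and the log2 change was 0.50 (SE 0.13, adjusted p = 0.0118). Rnf43 was 1 of 4 stem cell markers in the table, all of which rose, as given above.
Rnf144b (chromosome 13, 47122656 to 47247991, plus strand) encodes an RBR-type ligase, a class that passes ubiquitin through its own cysteine, and is a known p53 target. It was measured at 15.5, 18.2 and 16.3 RPM in WT and at 38.2, 40.2 and 29.6 RPM in KO, and thus reached 216% of the WT level. The lowest KO value lay 11.4 RPM above the highest WT value, and the log2 change was 1.10 (SE 0.15, adjusted p = 0.00178). Trim24 (chromosome 6, 37870811 to 37966296, plus strand), a chromatin reader and p53 ligase, was measured at 134, 126 and 122 RPM in WT and at 151, 192 and 174 RPM in KO. Its log2 change was 0.43 (SE 0.12, adjusted p = 0.0145), and it missed the threshold without KO replicate 2. Rnf32 (chromosome 5, 29195992 to 29228457, plus strand), a little-studied RING gene, had the tightest replicates of the members, at 39.02, 38.1 and 37.8 RPM in WT and 50.6, 50.7 and 52.6 RPM in KO. Its log2 change was 0.42 (SE 0.09, adjusted p = 0.00613), the smallest rise among the members before removal of the length trend.

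Trim29 and Rnf212 had the largest rises of the members and rested on few reads. Trim29 (chromosome 9, 43310848 to 43336115, plus strand) encodes a TRIM protein without a RING domain, known from squamous epithelia. As inferred from the step of the values, it had 1, 11 and 4 reads in WT and 17, 30 and 56 reads in KO. This is 0.0777, 0.703 and 0.261 RPM against 1.37, 2.06 and 3.92 RPM, and WT replicate 1 lies below the level of 3 reads. The groups did not overlap. The log2 change of 2.65 (SE 0.60, adjusted p = 0.00747) depended on the pseudocount and was 1.32 with a pseudocount of 1. Rnf212 (chromosome 5, 108729290 to 108774982, minus strand) encodes a RING protein known from meiotic crossing over and thought to act on SUMO. It had 12, 5 and 14 reads in WT and 58, 50 and 51 in KO, or 0.933, 0.319 and 0.914 RPM against 4.67, 3.43 and 3.57 RPM. The KO libraries were alike and all above WT. The log2 change was 2.38 (SE 0.36, adjusted p = 0.00251), 1.52 with a pseudocount of 1 and 1.77 after removal of the length trend.

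The 3 RING-family genes that fell act at membranes or on ribosomes. Rnf26 encodes a RING ligase of the endoplasmic reticulum membrane. Rnf26 was measured at 63.1, 74.6 and 71.2 RPM in WT and at 39.8, 46.7 and 47.8 RPM in KO, without overlap (log2 change -0.64, SE 0.12, adjusted p = 0.00471). Its value is uncertain as to the gene. The deposited region (chromosome 9, 44066327 to 44113517, minus strand) is longer than Rnf26 in the GENCODE M21 annotation, which starts at 44095631. It spans all of Usp2 on the other strand, and the gene model Gm49380 on the same strand shares 56.6% of the Rnf26 exon bases. The libraries were directional, but whether strand was used in counting was not given in the sources used here. Rnf26 and Usp2 differed in their KO libraries, since Rnf26 was lowest in KO replicate 1 and Usp2 in KO replicate 3.
March5 (chromosome 19, 37207543 to 37222139, plus strand) encodes a RING-CH ligase of the outer mitochondrial membrane. It was measured at 140.3, 127 and 156 RPM in WT and at 95.5, 104 and 109 RPM in KO, without overlap (log2 change -0.46, SE 0.12, adjusted p = 0.0107). Rnf10 (chromosome 5, 115241412 to 115272898, minus strand) encodes a ligase of small-subunit ribosomal proteins and was the most abundant member by RPM, at 511, 529 and 486 RPM in WT and 359, 407 and 455 RPM in KO. The groups were separated by 31.2 RPM, with KO replicate 3 nearest to WT. The log2 change of Rnf10 was -0.33 (SE 0.12, adjusted p = 0.0311). Rnf10 missed the threshold in 5 of the 6 fits with a library left out and with the replicate number as a block (adjusted p = 0.0637).

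The E2 genes moved in opposite directions, and both serve modifiers other than ubiquitin. Ube2f (chromosome 1, 91250304 to 91290337, plus strand) encodes a NEDD8 carrier that activates cullin 5. Ube2f was measured at 53.2, 57.3 and 74.6 RPM in WT and at 36.3, 46.3 and 40.1 RPM in KO. The groups did not overlap, WT replicate 3 was the highest library, and the log2 change was -0.58 (SE 0.16, adjusted p = 0.0143). Ube2l6 (chromosome 2, 84798828 to 84810335, plus strand) encodes the main carrier of the interferon-induced modifier ISG15. It was measured at 15.7, 12.3 and 12.1 RPM in WT and at 26.4, 24.2 and 15.3 RPM in KO. WT replicate 1 was above KO replicate 3, the single overlap among the members. The log2 change of Ube2l6 was 0.68 (SE 0.23, adjusted p = 0.0230), and it was 0.18 with an adjusted p of 0.368 after removal of the length trend. Ube2l6 also missed the threshold in 4 of the 6 fits with a library left out.

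Ubxn11 (chromosome 4, 134102570 to 134127593, plus strand) encodes a protein with a UBX domain, the fold by which many cofactors bind p97. It had 10, 21 and 15 reads in WT and 29, 72 and 42 reads in KO. These are 0.777, 1.34 and 0.979 RPM against 2.33, 4.94 and 2.94 RPM, so that every KO library was above every WT library. Ubxn11 had a log2 change of 1.59 (SE 0.30, adjusted p = 0.00472), or 1.08 with a pseudocount of 1. Sh3bgrl3, on the opposite strand, shares 3.96% of the Ubxn11 exon bases and was higher in KO as well (log2 change 0.69).

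Some members lie beside other genes of the table. Within 100 kb, 11 of the 21 members had such a neighbour (38.6% over the table), and the nearest moved in the same direction in 9 of the 11 (68.6% over the table). In 4 of these 9 the nearest gene overlaps the member. Rnf26 and Usp2 are each other's nearest gene, the deposited region of Rnf26 spanning Usp2, and the others are Sh3bgrl3 at Ubxn11 and 1110028F11Rik within Rnf43. Of the 7 members whose nearest gene lies apart, 5 had the same direction as it, 71.4% beside 66.3% over the table. Psmd2 lies 4.90 kb from Eif4g1, a translation initiation factor gene, with log2 changes of -0.31 and -0.28. Klhl2 lies 5.88 kb from Msmo1, a sterol synthesis gene, with -0.53 and -0.54. It also lies 46.6 kb from Cpe, which went the other way (log2 change 0.76). Rnf10 lies 6.77 kb from Coq5, of coenzyme Q synthesis, with -0.33 and -0.40. Among the nearest genes, those of Ube2f and Usp39 were the exceptions. Ramp1, a receptor-modifying protein gene 25.1 kb from Ube2f, rose by 1.28. Atoh8, a transcription factor gene 83.1 kb from Usp39, rose by 1.16. Over all rows the log2 change fell weakly with transcript length (Spearman's rho -0.22). Removal of that trend also takes out the average deviation of each library. It thus sets the table near 0, and the median of the table moved from 0.38 to -0.09. No member changed direction with this removal, but Otud3 moved to -0.97, March5 to -0.90 and Usp39 to -0.76, all genes with short transcripts.

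Genes of the same system under other names were fewer in the table. Of 318 symbols listed for modifiers, E1 enzymes, other ligases, cullin-RING partners, other deubiquitinases and p97 partners (older symbols included), 16 were in the table, and all 16 passed the threshold, 6 higher and 10 lower, where 99.9% of the table passed, 52.5% higher and 47.4% lower, so that passing is no separate finding here either. The list was written with results of these data known. No E1, HECT ligase, SUMO or UFM1 enzyme gene of the list was in the table. Dtx3, a RING gene related to the Notch regulator Deltex, rose from 5.67, 6.13 and 5.29 RPM to 13.4, 14.6 and 9.60 RPM (log2 change 1.11, adjusted p = 0.00276, and 0.71 with the length trend removed). Ddb2, the adaptor that directs the cullin 4 ligase to ultraviolet damage, rose from 28.2, 27.0 and 30.7 RPM to 45.0, 54.8 and 45.7 RPM. Its log2 change was 0.76 (adjusted p = 0.00283), and 0.43 with that trend removed. The KO libraries of Dtx3 and Ddb2 were all above WT.
Socs2, a cullin 5 adaptor that restrains growth hormone signalling, had a log2 change of 0.56 (adjusted p = 0.0132). Among the falls, Kbtbd11, a Kelch gene, went from 48.8, 47.9 and 48.2 RPM to 19.4, 26.4 and 25.0 RPM (log2 change -1.04, adjusted p = 0.00171). Uchl3, a deubiquitinase that also acts on NEDD8, fell with a log2 change of -0.58 (adjusted p = 0.00923), in the direction of the 3 deubiquitinase members. Dtx2 fell with -0.53 (adjusted p = 0.00417), opposite to its relative Dtx3. Of the 4 RING and U-box ligase genes of this list in the table, 3 were lower (Dtx2, Siah2 and Mex3c) and only Dtx3 was higher (median -0.48), beside 9 higher and 4 lower among the ligase members. The cullin-RING partners in the table were 3 higher and 3 lower (median 0.02), beside 3 higher and 1 lower among the members. The part of the list with p97, shuttle and receptor proteins had 3 genes in the table, Plaa, Zfand5 and Ubash3b. All 3 were lower (median -0.40), whereas Ubxn11 rose. The differences between these small groups were not tested. Siah2 and Mex3c each had a log2 change of -0.48, and that of Siah2 was -0.74 with the length trend removed.
The largest fall was in Ubash3b, which encodes a phosphatase with a ubiquitin-binding domain that dampens signalling from receptor kinases. It had 34, 23 and 19 reads in WT and 1, 1 and 0 reads in KO. Over the group, WT was 35.8 times KO per read sequenced, with an exact 95% interval of 9.57 to 300.7 that covers counting error only. The KO level lay below 3 reads in each library.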

How the data were processed

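The authors trimmed reads with Trim Galore 0.4.2, mapped them to GRCm38 with HISAT2 2.0.3, counted uniquely mapped reads over merged exons in SeqMonk and chose genes with DESeq2. The deposited values are RPM, scaled by the authors to library depth, for the 1420 chosen genes. The authors' FDR column was not used. RPM were whole multiples of a step taken as 1 read (tolerance 0.05 reads), which gave depths and reads. No count test was run.

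All 1420 genes were tested with limma 3.58.1 in R 4.3.3 on log2(RPM + 0.1), 3 KO against 3 WT by sample title, two-sided, with Benjamini-Hochberg adjustment and a threshold of 0.05, after the code was tested on simulated data. This scale understates changes of low genes. The exact permutation test of a gene cannot give a p-value under 0.1 at this size. P-values measure the spread between these libraries. GENCODE M21 gave annotation and transcript length for 1397 genes and all 21 members. The length trend was fitted in each library over these 1397 genes, and its removal takes out the average deviation too. The members, classes, lists and alternatives were chosen with earlier results of these data known. The naming rule took the proteasome and UBX genes, members with a log2 change of at least 1 and, in each other class and the list of other genes, the 4 largest rises and falls without overlap, 1 of which is not reported here. Trim24, Rnf32 and Ube2l6 were added so that every member is given, and Siah2 and Mex3c after their values were seen. The promoters shown and the neighbouring genes were chosen after their values were seen. Alternatives were a pseudocount of 1, keeping genes with a mean above the 25th percentile, median centring, an intensity trend, the replicate block, removal of a loess length trend, a minimum log2 change of 1, and leaving out each library.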

Additional observations from a re-analysis of the deposited data

How the results depend on the processing

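No member changed direction under any alternative that was run: of 245 member values 219 stayed on their side of the threshold and 26 no longer passed it, and of 118 values of 10 other ubiquitin-system genes (8 of the naming rule, Siah2 and Mex3c) 6 no longer passed it. Members called higher numbered 11, but 4 among genes above the 25th percentile of the mean (which tests 14 members) and 6 with a minimum log2 change of 1. Of the 1065 genes of the table above that percentile, 475 were called higher and 590 lower, beside 746 and 673 of all 1420 genes. Members called lower numbered 10, but 0 with that minimum and 6 among genes acting on ubiquitin itself. With a library left out they numbered 5 to 10 (6 without WT replicate 1, 5 without WT replicate 3, 6 without KO replicate 2) and those called higher 9 to 11. Over the whole table the genes called lower went from 673 to 508, 547 and 517 in the same fits, in that order. Those called higher went from 746 to 651, 672 and 621, so calls were lost across the table and not in the members alone. The ligase median of 0.50 moved to 0.046 above the 25th percentile, where the low genes that rose are not tested. The median of the table moved from 0.38 to -0.35 there. The deubiquitinase median of -0.49 moved to -0.76 with the length trend removed and ran from -0.58 to -0.36 with a library left out. With the replicate block 11 members were called higher and 9 lower, Rnf10 being lost, beside 1351 genes of the table. Libraries with the same number did not deviate together (correlations -0.08, 0.09 and 0.06), over genes chosen for a difference between the groups. This cannot show whether the numbers pair the cultures, and by the methods the controls were littermates. Depth limits Trim29, Rnf212, Ubxn11 and Ubash3b, and genes outside the table were not analysed here.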
